A study of Mus musculus with 17 samples.

Results

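Entpd1, Nt5e, Cd38, Adora2a and P2rx7 encode cell-surface enzymes and receptors that handle extracellular ATP, NAD and adenosine. They were chosen by symbol, as 5 of the 27240 gene rows in the count table, and all 5 passed the filter on low counts, which left 20137 genes to test. RNA was sequenced in bulk from CD8 T cells sorted by flow cytometry from mouse lung tumours. KO stands for mice whose endothelium lacks PD-L1, through which other cells engage the inhibitory receptor PD-1 on T cells, and WT for mice that keep it. Core denotes tissue enriched for tumour core, taken from macroscopic nodules, and rim denotes tissue enriched for tumour rim, taken from parenchymal nodules. There were 6 KO core, 5 WT core, 4 KO rim and 2 WT rim libraries. The sources used here do not give the promoter that drives the deletion, the age of the mice, the strain or the tumour model. One WT core library is labelled as a pool, and the identifiers F322, F86 and O each name 1 KO core and 1 KO rim library. No label states that libraries came from separate animals, so the p-values measure only the spread between libraries, which may be technical.

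ATP that leaves damaged or activated cells is a danger signal, and a chain of ectoenzymes turns it into adenosine, which restrains T cells. Entpd1 encodes CD39, which removes phosphates from ATP and ADP to leave AMP, and Nt5e encodes CD73, which turns AMP into adenosine. Cd38 encodes an ectoenzyme that consumes NAD and makes ADP-ribose and its cyclic form, and ADP-ribose can feed another route to AMP. Adora2a encodes the adenosine A2a receptor, which raises cyclic AMP in T cells and dampens signalling of the T cell receptor. P2rx7 encodes an ATP-gated cation channel, which in mouse T cells is also opened by ADP-ribosylation of surface proteins when NAD is released. CD39 and CD38 are widely used as surface markers of chronically stimulated CD8 T cells in tumours.

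The libraries held 21767045 to 32566456 counts each, and no pair held identical values. CD8 T cell identity genes (Cd8a, Cd8b1, Cd3d, Cd3e, Cd3g, Cd2, Cd5 and Thy1) summed to 4301 to 7290 CPM (read counts scaled to a common library size) in KO core, 3786 to 7978 in WT core, 5884 to 6405 in KO rim and 5102 to 5466 in WT rim. Cd274, which encodes PD-L1, lay between 87.8 and 213 CPM in KO libraries and between 114 and 220 CPM in WT libraries, and since the deletion is endothelial these T cell values do not check the genotype. Both F322 and both O libraries held 449 to 511 CPM of the Y-linked genes Ddx3y, Eif2s3y, Kdm5d and Uty, and the WT core pool held 103 CPM. The other 12 libraries held at most 0.179 CPM. Y-linked reads were thus not balanced by genotype: KO core and KO rim each included F322 and O, while WT rim held none.

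Relative to the length of all annotated exons, P2rx7 was the least abundant of the 5 genes in each group. Cd38 had the highest mean in all groups but WT rim, where Nt5e averaged 22.9 CPM per kilobase beside 22.3 for Cd38. Gene-level counts do not tell which transcripts were present, so the order of genes depends on this choice of length. Per kilobase of exon, Cd38 averaged 65.0 CPM in KO core, 71.7 in WT core, 56.0 in KO rim and 22.3 in WT rim. Nt5e, Adora2a and Entpd1 lay close together in KO core, at 24.4, 22.9 and 20.7 CPM per kilobase. P2rx7 averaged 6.24 CPM per kilobase in KO core, 7.91 in WT core, 5.13 in KO rim and 3.83 in WT rim. By mean CPM over the 17 libraries, Cd38 exceeded 96.0% of the tested genes, Nt5e 95.6%, Entpd1 89.3%, Adora2a 83.0% and P2rx7 72.8%. The lowest count behind any member value was 276 reads, for P2rx7 in KO rim F322, so counting error was small beside the spread between libraries.

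**Figure D1:**
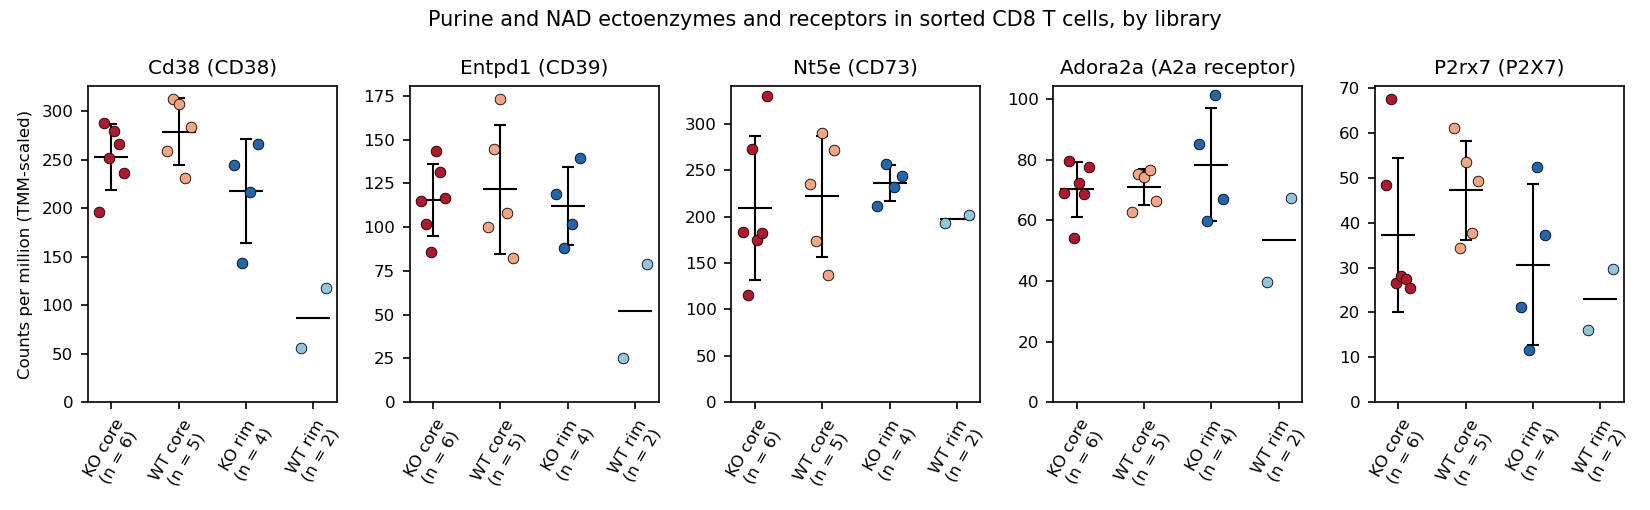
CPM of Cd38, Entpd1, Nt5e, Adora2a and P2rx7 in each of 17 libraries, by group; each point is 1 library, the horizontal line is the group mean and the whiskers are the SD, drawn for groups of 4 or more. For Cd38 both WT rim libraries, at 55.9 and 118 CPM, lie below every other library, while for Nt5e every library of the other 3 groups lies within the range of KO core.

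Cd38 differed most between groups. In sorted CD8 T cell libraries of WT tumours its level in core was 3.22 times that in rim (95% interval 2.14 to 4.82). No such difference was called in KO tumours. In the core, Cd38 had a lowest value of 196, a median of 259 and a highest value of 288 CPM in the 6 KO libraries, and 259, 313, 307, 231 and 284 CPM in the 5 WT libraries. In the rim it had 245, 144, 217 and 266 CPM in the 4 KO libraries, against 55.9 and 118 CPM in the 2 WT libraries. The core groups overlapped each other and KO rim, whereas both WT rim libraries were lower than all others. Group means were 253 ± 33.8 CPM in KO core (SD, n = 6), 279 ± 34.2 in WT core (n = 5), 218 ± 53.4 in KO rim (n = 4) and 86.7 ± 43.6 in WT rim (n = 2). In the order WT core, KO core, KO rim, WT rim, neighbouring means differed by less than the larger SD except at the last step.

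Core over rim in WT, Cd38 differed by 1.69 on the log2 scale (SE 0.276, adjusted p = 0.00563, edgeR quasi-likelihood test with Benjamini-Hochberg adjustment over all genes). In KO the same difference was 0.21 (SE 0.194, 95% interval -0.20 to 0.63, adjusted p = 0.866 with edgeR). Averaged over both genotypes it was 0.95 (SE 0.167, adjusted p = 0.00455 with edgeR). KO over WT in the rim, the log2 fold change was 1.33 (SE 0.276, 95% interval 0.74 to 1.91), which ranked Cd38 as number 20 of 20137 genes by p but gave an adjusted p of 0.173 with edgeR. KO over WT in the core it was -0.14 (SE 0.181, interval -0.52 to 0.24). The genotype effect in core minus that in rim was -1.47 (SE 0.327, adjusted p = 0.250 with edgeR), and DESeq2 gave adjusted p-values of 0.00501 for this difference and 0.000638 for KO over WT in the rim. Thus edgeR called Cd38 by site in WT tumours, and its genotype effect in the rim was called by DESeq2 but not by edgeR.

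These Cd38 results leaned on 2 WT rim libraries. Without WT rim H874, the lower of the pair, the core over rim difference in WT was 1.24 (adjusted p = 0.0907, edgeR) and no longer called, and the mean over both genotypes was 0.73 (adjusted p = 0.0473). Without WT rim H877 the difference in WT was 2.33 (adjusted p = 0.00302), KO over WT in the rim was 1.98 (adjusted p = 0.0242) and the difference between genotype effects was -2.12 (adjusted p = 0.0292), all with edgeR. Leaving out KO rim F322, the lowest KO rim library, also brought KO over WT in the rim past the threshold, at 1.48 (adjusted p = 0.0385). In each of these fits the direction was the same as with all libraries.

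Transcripts of macrophages and monocytes, cells that can also carry CD38, CD39 and P2X7, moved the same way. The 11 markers of these cells used here (C1qa, C1qb, C1qc, Adgre1, Lyz2, Cd68, Marco, Fcgr1, Mrc1, Ms4a7 and Apoe) summed to 1700.4 to 5269 CPM in KO core, 1795 to 5422 in WT core, 621 to 7379.8 in KO rim and 1078 to 1719 in WT rim, and none was at 0 throughout a group. All 11 had positive log2 fold changes core over rim in WT (median 2.70, 2 called) and KO over WT in the rim (median 2.46, 0 called by edgeR). With their mean log2 level as a covariate, core over rim for Cd38 was 1.55 in WT (SE 0.323, adjusted p = 0.0636, edgeR) and 0.88 over both genotypes (SE 0.195, adjusted p = 0.0514). In KO rim, O and F15 had the most of both, with marker sums of 7379.8 and 3989 CPM, whereas F86 had the lowest marker sum, 621 CPM, and F322, at 1074 CPM, the least Cd38. The 3 core libraries with the highest marker sums were KO F219 at 5269, WT F164 at 5422 and WT H876 at 5177 CPM. They had 196, 259 and 231 CPM of Cd38, at the low end of their groups. Next came KO core F322 at 4345 and WT core H873 at 4208 CPM. Their Cd38, 280 and 307 CPM, lay near the high end of their groups. The markers of epithelium and tumour also tended to be low in WT rim, summing to 183 to 697 CPM in KO core, 94.5 to 465 in WT core, 63.0 to 561 in KO rim and 30.3 to 142 in WT rim, where Nkx2-1 was at 0. Markers of CD4 and regulatory T cells, a cell type that also carries CD39 and CD73, summed to 151 to 259 CPM in KO core, 209 to 297 in WT core, 125 to 198 in KO rim and 58.4 to 174 in WT rim. Not all lists moved this way. Of 8 B and plasma cell markers, 2 were positive core over rim in WT (median log2 fold change -0.68). KO over WT in the rim 1 of the 8 was positive (median -0.55). Of 8 dendritic cell markers, 5 were positive core over rim in WT (median 0.38). KO over WT in the rim 0 of these 8 were positive (median -0.68). The part of these other cells in the member values was not tested beyond the covariate fits. In bulk RNA, fewer cells of a type and less RNA per cell cannot be told apart.

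Entpd1, the gene of CD39, followed the order of Cd38 with larger scatter, and edgeR called it in no comparison. In the core it had a lowest value of 85.6, a median of 116 and a highest value of 143 CPM in the KO libraries, and 99.8, 145, 173, 108 and 82.3 CPM in the WT libraries. Rim libraries had 119, 88.3, 102 and 139 CPM in KO, against 25.2 and 79.2 CPM in WT. Both WT rim libraries were again below all others, H877 by a small margin from the WT core pool at 82.3 CPM and H874 by a wide one. The means were 116 ± 20.6 CPM in KO core, 122 ± 36.7 in WT core, 112 ± 21.998 in KO rim and 52.2 ± 38.2 in WT rim. Only the step from KO rim to WT rim exceeded the larger SD.

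On the log2 scale Entpd1 differed by 1.22 core over rim in WT (SE 0.370, interval 0.44 to 2.004, adjusted p = 0.0785 with edgeR, 0.0117 with DESeq2). Core over rim in KO it differed by 0.04 (SE 0.266, interval -0.52 to 0.61). KO over WT in the rim the difference was 1.10 (SE 0.376, interval 0.31 to 1.90, adjusted p = 0.499 with edgeR and 0.130 with DESeq2), and in the core it was -0.07 (interval -0.60 to 0.45). The size rested in part on H874: without it the difference by site in WT was 0.62 and KO over WT in the rim was 0.50. With H877 left out instead they were 2.29 (adjusted p = 0.00925, edgeR) and 2.17 (adjusted p = 0.0512). The genotype effect of Entpd1 in core minus that in rim was -1.18 (SE 0.447, adjusted p = 0.586 with edgeR).

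Nt5e, which encodes the enzyme that completes the step from AMP to adenosine, showed no such order. It had a lowest value of 115, a median of 183 and a highest value of 330 CPM in KO core, and 235, 174, 290, 138 and 272 CPM in WT core. Rim values were 211, 257, 232 and 244 CPM in KO and 194 and 201 CPM in WT. The widest range was thus within KO core, and it enclosed every other library of the series. The log2 fold change was -0.08 for KO over WT in the core (SE 0.231, interval -0.57 to 0.41), 0.26 for KO over WT in the rim (SE 0.335, interval -0.45 to 0.97), -0.17 for core over rim in KO (SE 0.246, interval -0.69 to 0.35) and 0.17 for core over rim in WT (SE 0.323, interval -0.52 to 0.85). All 8 B and plasma cell markers had negative log2 fold changes KO over WT in the core (median -1.04, 0 called by edgeR), and with their level as a covariate Nt5e was -0.41 there (SE 0.226, adjusted p = 0.884). With the same covariate Nt5e was -0.50 for core over rim in KO (SE 0.238, adjusted p = 0.712). No Nt5e difference was called, and the intervals leave room for differences of up to 0.97 on the log2 scale in the rim. KO rim libraries were all above both WT rim libraries for Nt5e, with KO rim F15 at 211 CPM as the nearest to WT rim H877 at 201 CPM.

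The promoter windows of Cd38, Entpd1 and Nt5e are shown because the first differed by site, the second had the same order of groups and the third did not. The sequences are from RefSeq on GRCm38.p6, plus strand, from 250 bases before to 50 after the annotated start; the capitals mark matches on either strand to 8 motifs searched, and no match to another motif overlaps them. The motifs were the cyclic AMP response element TGACGTCA and its shorter form TGACG, the hypoxia response cores ACGTG and GCGTG, the AP-1 site TGANTCA, the NFAT core GGAAA, the RUNX core TGTGGT and the TCF/LEF core CTTTGA.
Cd38, chr5:43868559-43868858: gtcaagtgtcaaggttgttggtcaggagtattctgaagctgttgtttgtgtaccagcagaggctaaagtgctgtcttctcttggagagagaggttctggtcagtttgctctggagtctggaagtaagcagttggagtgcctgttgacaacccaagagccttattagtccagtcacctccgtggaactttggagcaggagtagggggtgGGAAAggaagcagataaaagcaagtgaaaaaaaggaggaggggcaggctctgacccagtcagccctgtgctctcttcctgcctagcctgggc
Entpd1, first start, chr19:40612116-40612415: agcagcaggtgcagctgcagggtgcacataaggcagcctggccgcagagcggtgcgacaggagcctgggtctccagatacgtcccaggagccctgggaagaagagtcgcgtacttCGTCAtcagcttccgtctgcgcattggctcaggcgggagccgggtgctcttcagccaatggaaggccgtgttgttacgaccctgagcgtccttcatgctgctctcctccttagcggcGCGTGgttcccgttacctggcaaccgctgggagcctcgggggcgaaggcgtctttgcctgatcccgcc
Entpd1, second start, chr19:40659520-40659819: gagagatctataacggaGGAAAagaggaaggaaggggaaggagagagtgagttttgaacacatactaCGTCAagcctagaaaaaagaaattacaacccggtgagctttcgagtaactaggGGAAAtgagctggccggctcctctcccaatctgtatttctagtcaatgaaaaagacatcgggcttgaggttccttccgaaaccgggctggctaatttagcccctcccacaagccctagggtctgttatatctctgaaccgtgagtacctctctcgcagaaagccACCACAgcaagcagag
Nt5e, chr9:88327359-88327658: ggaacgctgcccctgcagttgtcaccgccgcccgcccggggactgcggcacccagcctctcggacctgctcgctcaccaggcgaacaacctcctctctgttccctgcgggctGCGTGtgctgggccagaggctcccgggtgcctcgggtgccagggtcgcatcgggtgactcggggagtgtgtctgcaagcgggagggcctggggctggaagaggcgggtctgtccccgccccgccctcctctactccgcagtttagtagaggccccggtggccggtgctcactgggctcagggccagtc

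The Cd38 window held 1 match, the NFAT core GGAAA, which 61.3% of the 32851 promoter windows of the same length hold. The first Entpd1 window held TGACG on the minus strand, present in 20.8% of all windows, and GCGTG, present in 32.4%. The second Entpd1 window, at the start within the gene, held TGACG on the minus strand, GGAAA at 2 places and TGTGGT on the minus strand, which 16.8% of windows hold. Nt5e held GCGTG alone. The windows differed in base composition, with 51.7% G and C in Cd38, 64.0% and 48.7% in the Entpd1 windows and 71.0% in Nt5e. The median over all windows was 52.7%. The Cd38 window held 1 CG dinucleotide, the Entpd1 windows 23 and 10, and that of Nt5e 23. A match is a description of the letters, and gene-level counts do not tell which start of Entpd1 was used. On the GENCODE M21 annotation of GRCm38, Cd38 spans chr5:43868553-43912375, Entpd1 chr19:40612366-40741602, Nt5e chr9:88327197-88372092, Adora2a chr10:75316877-75334784 and P2rx7 chr5:122643911-122691432, all on the plus strand. The Cd38 and Nt5e windows lie within these spans, so their RefSeq starts fall after the first base of the GENCODE gene. No exon of a member overlapped an exon of another counted gene.

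Adora2a, the adenosine receptor, varied little in the core, with a coefficient of variation of 12.9% in KO and 8.53% in WT. It had a lowest value of 54.1, a median of 70.7 and a highest value of 79.5 CPM in KO core, and 62.9, 75.2, 74.2, 76.5 and 66.3 CPM in WT core. In the rim the values were 85.1, 59.7, 101 and 67.1 CPM in KO, against 39.6 and 67.4 CPM in WT. All core libraries but KO core F319 lay within the range of KO rim, and H874 was the lowest of all libraries. KO over WT, Adora2a had a log2 fold change of -0.02 in the core (SE 0.155, interval -0.35 to 0.31) and 0.55 in the rim (SE 0.228, interval 0.07 to 1.03, adjusted p = 0.641 with edgeR). Core over rim it differed by -0.16 in KO (interval -0.51 to 0.19) and by 0.41 in WT (interval -0.06 to 0.87). Without H874 the rim difference between genotypes was 0.21.

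P2rx7, the ATP-gated channel, varied more than Adora2a, with a coefficient of variation of 46.2% in KO core and 23.4% in WT core. In KO core its values fell into a low set of 4 libraries between 25.4 and 28.1 CPM and 2 higher libraries, F219 at 48.4 and F318 at 67.6 CPM. WT core had 61.0, 34.4, 53.6, 37.7 and 49.3 CPM, KO rim 21.1, 11.7, 52.4 and 37.3 CPM, and WT rim 16.2 and 29.6 CPM. All 5 WT core libraries were above both WT rim libraries, while the KO groups overlapped broadly. Core over rim the log2 fold change was 1.04 in WT (SE 0.516, interval -0.05 to 2.14, adjusted p = 0.303 with edgeR) and 0.28 in KO (SE 0.378, interval -0.52 to 1.08). KO over WT it was -0.34 in the core (SE 0.351, interval -1.08 to 0.40; -0.58 without KO core F318 and -0.17 without the F322 and O libraries) and 0.42 in the rim (SE 0.514, interval -0.67 to 1.51). These intervals are the widest of the 5 genes in each of the 4 comparisons.

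**Figure D2:**
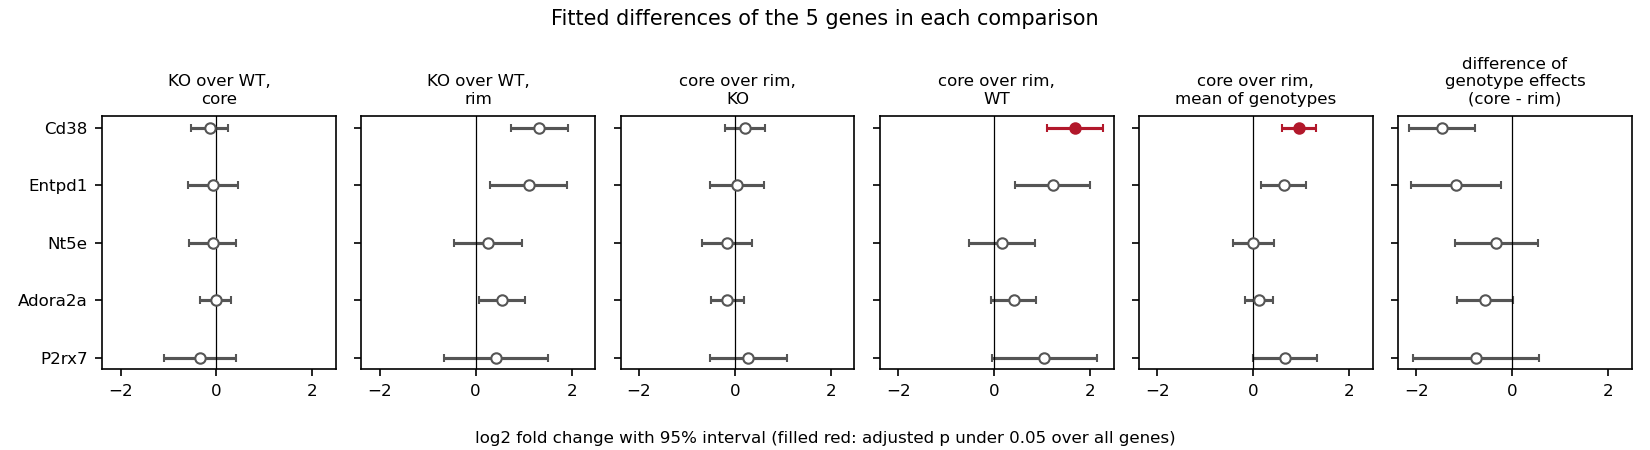
Log2 fold changes of the 5 genes with 95% intervals in 6 comparisons fitted by edgeR; filled red points have an adjusted p under 0.05 over all genes. Cd38 is filled in core over rim, at 1.69 in WT and 0.95 over both genotypes, and no other point is filled.

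The counts of members called stand here beside the share of all genes called in each comparison. KO over WT in the core, edgeR called 0 of 5 members and 0% of all genes, with 0 members and 1244 of 20137 genes at an unadjusted p under 0.05. DESeq2 called 0 members there, beside 0.0455% of genes. In the rim, edgeR called 0 members and 0% of genes for KO over WT, while Entpd1, Cd38 and Adora2a were among 1480 genes at an unadjusted p under 0.05, and DESeq2 called Cd38 beside 1.62% of genes. All KO rim libraries were above both WT rim libraries for 3 of 5 members, Entpd1, Nt5e and Cd38, and for 6.86% of all genes.

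By site in KO, edgeR called 0 members and 0% of genes, 0 members and 1600 genes had an unadjusted p under 0.05, and DESeq2 called 0 members beside 0.187% of genes. By site in WT, edgeR called 1 of 5 members beside 3.86% of genes, of which 2.1% of all genes were higher in core and 1.76% lower. DESeq2 called Cd38 and Entpd1 there beside 11.8% of genes. All WT core libraries were above both WT rim libraries for Entpd1, Cd38 and P2rx7 and for 10.1% of all genes. Averaged over genotypes, edgeR called Cd38 beside 6.37% of genes, 3.31% higher in core and 3.06% lower, and DESeq2 called Cd38 and Entpd1 beside 15.1%. For the difference of genotype effects, edgeR called 0 members and 0% of genes, with Entpd1 and Cd38 among 1547 genes at an unadjusted p under 0.05, and DESeq2 called Cd38 beside 0.913%. Median log2 fold changes of the members were -0.08 for KO over WT in the core, against -0.01 over all genes, and 0.55 in the rim, against 0.01 over all genes. Core over rim they were 0.04 in KO, against 0.03 over all genes, and 1.04 in WT, against 0.03 over all genes. The comparisons share libraries, WT rim among them, and so are not independent. The members were chosen with earlier results of these data known, so setting them beside all genes is a description and not a test.

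Within groups, Entpd1 was lower in libraries with more Tcf7, the gene of TCF-1, a transcription factor of stem-like T cells. Tcf7 had a lowest value of 232, a median of 315 and a highest value of 533 CPM in KO core, and 467, 304, 166, 263 and 472 CPM in WT core. It had 509, 653, 491 and 341 CPM in KO rim, against 1112 and 258 CPM in WT rim. H874, the library with the least Entpd1, had the most Tcf7, and WT core H873, with the most Entpd1, had the least Tcf7. After each group's mean was subtracted, log2 CPM of Entpd1 and Tcf7 had a Pearson r of -0.936 over 17 libraries (permutation p = 0.00017, adjusted p = 0.0068 over 40 relations) and a Spearman rho of -0.890 (permutation p = 0.00048, adjusted p = 0.0192). Without both WT rim libraries, which lay farthest from the median of Entpd1 after subtraction of the group means, r was -0.883 (adjusted permutation p = 0.008). In KO core alone r was -0.896 (exact permutation p = 0.0194, n = 6).

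**Figure D3:**
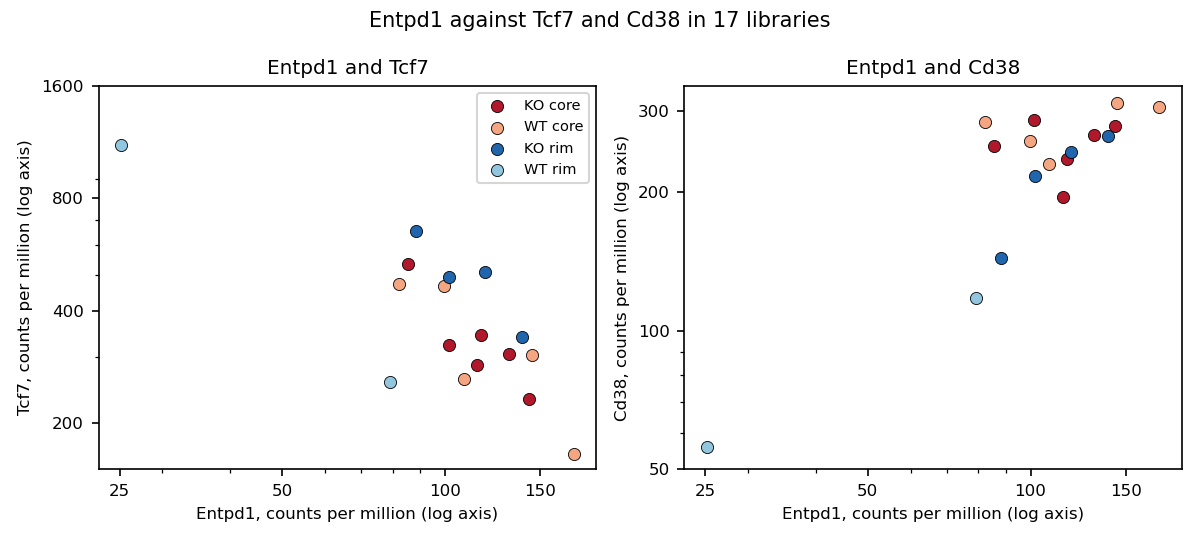
Entpd1 against Tcf7 (left) and against Cd38 (right) in CPM on log axes, with 1 point per library and colours for the 4 groups. In the left panel libraries with more Entpd1 have less Tcf7 within the groups, and WT core H873 with 166 CPM of Tcf7 and WT rim H874 with 1112 CPM are the extremes; in the right panel the 3 libraries with the least Cd38 stand apart from a cloud of 14.

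By Pearson and by Spearman alike, Entpd1 with Tcf7 was the only 1 of 40 relations to pass after adjustment, and 8 had an unadjusted Pearson p under 0.05. The 40 comprised the 10 pairs of members and each member with Pdcd1, Havcr2, Lag3, Tox, Tcf7 and Slamf6. Entpd1 and Cd38 had r = 0.722 (adjusted permutation p = 0.177) and rho = 0.684 (adjusted permutation p = 0.130); r was 0.491 without the 2 farthest libraries. Cd38 had r = -0.793 with Slamf6, a surface receptor of stem-like T cells, and r = 0.711 with Lag3, an inhibitory receptor (adjusted permutation p = 0.164 and 0.134). Havcr2, which encodes the inhibitory receptor TIM-3, had r = 0.719 with Entpd1 and 0.623 with Cd38, and Slamf6 had r = -0.765 with Entpd1. In KO core alone these 6 values were 0.10, -0.07, -0.28, 0.43, 0.07 and -0.25, in the order given. Adora2a had r = -0.639 with Tcf7, which was -0.247 without the 2 farthest libraries. As KO identifiers recur in core and rim, the 17 libraries may not be independent.

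By likeness over all 17 libraries, measured as Pearson r of log2 CPM among the 9877 genes that averaged 5 CPM or more, the nearest genes to Cd38 were Cenpm (0.952), Lcmt1 (0.950) and Kif18b (0.929). Those of Entpd1 were Asns (0.948), Chst12 (0.934) and Lcmt1 again (0.913). Nt5e was nearest to Gprin3 (0.837), Rrp1b (0.828) and Il18r1 (0.828), Adora2a to Bhlhe40 (0.826), Gpr160 (0.819) and Gem (0.817), and P2rx7 to Elmo2 (0.866), Dync1i2 (0.863) and Nmt1 (0.861). Cenpm, a centromere protein gene, averaged 9.54 CPM in KO core, 11.9 in WT core, 7.14 in KO rim and 2.34 in WT rim, the group order of Cd38. Asns, the gene of asparagine synthetase, averaged 30.9, 34.3, 24.7 and 6.28 CPM in the same groups. These genes were picked for their likeness, and r is a description over libraries that share groups and depth.

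The calls among the other genes of purine and NAD signalling are read against those over all genes. Of 68 listed, 67 were in the table and 62 were tested. KO over WT in the core, KO over WT in the rim and core over rim in KO, edgeR and DESeq2 each called 0 of them, and 2, 4 and 6 had an unadjusted p under 0.05 with edgeR. In WT 1 gene was called by site, P2ry10, and over both genotypes 3 were called, P2ry10, Pde3b and Entpd6, all lower in core, beside 3.86% and 6.37% of all genes. By edgeR 0 were called higher in core, where DESeq2 called 1 higher and 4 lower in WT, and 1 higher and 9 lower over both genotypes, beside 11.8% and 15.1% of all genes. The median log2 fold change of the 62 was 0.09 core over rim in WT, against 0.03 over all genes, and -0.12 KO over WT in the rim, against 0.01 over all genes.

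P2ry10, named among the P2Y receptors and known as a receptor for lysophosphatidylserine, had a lowest value of 233, a median of 336 and a highest value of 413 CPM in KO core, and 302, 321, 339, 528 and 338 CPM in WT core. KO rim had 448, 571, 555 and 378 CPM, and WT rim 716 and 711 CPM. Both WT rim libraries were above all others, the reverse of Cd38. Core over rim the log2 fold change was -0.96 in WT (SE 0.221, adjusted p = 0.0248, edgeR), -0.53 in KO (SE 0.176, adjusted p = 0.620) and -0.75 over both genotypes (SE 0.141, adjusted p = 0.00644). The call in WT was lost without WT core H873, without either WT rim library and without the F322 and O libraries. P2ry10b, a paralogue, averaged 20.7 CPM over all libraries and was not called, and the sources used here do not say how reads were divided between the pair.

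Pde3b, a phosphodiesterase that breaks down cyclic AMP, averaged 53.4 ± 6.51 CPM in KO core (n = 6), 53.3 ± 15.03 in WT core (n = 5), 86.02 ± 21.8 in KO rim (n = 4) and 104 ± 59.3 in WT rim (n = 2). Its log2 fold change over both genotypes was -0.83 (SE 0.187, adjusted p = 0.0161, edgeR), and -0.46 without H874, which ended the call, as did leaving out the F322 and O libraries. Entpd6, a relative of CD39, averaged 58.9 ± 9.004 CPM in KO core, 56.8 ± 5.19 in WT core, 75.1 ± 14.2 in KO rim and 85.4 ± 20.3 in WT rim. It differed by -0.47 over both genotypes (SE 0.117, adjusted p = 0.0256, edgeR), a call that ended without WT rim H874, without KO rim F322, without all F322 and O libraries, and with B and plasma cell markers as a covariate. With macrophage markers as a covariate none of the 3 genes was called.

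In the lists without a call by edgeR the most abundant genes had these levels. Of those named here DESeq2 called Dpp4 and Art2a by site over both genotypes. Their edgeR log2 fold changes core over rim were -0.42 for Dpp4 and -1.02 for Art2a. Dpp4, which encodes a docking protein for adenosine deaminase in humans, averaged 214 CPM, and Ada, adenosine deaminase itself, 10.01 CPM. Of the other adenosine receptors, Adora2b averaged 4.11 CPM, and Adora3 0.832 CPM, while Adora1 failed the filter. P2rx4, another ATP-gated channel, averaged 43.7 CPM. Art2b encodes an ADP-ribosyltransferase that acts upstream of P2X7 in mouse T cells. It averaged 50.6 ± 20.6 CPM in KO core, 43.1 ± 7.27 in WT core, 61.8 ± 22.4 in KO rim and 48.8 ± 39.9 in WT rim. Its near copy Art2a averaged 2.45 CPM over all libraries and makes this count uncertain. Nadk, which turns NAD into NADP, averaged 217 CPM.

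**Figure D4:**
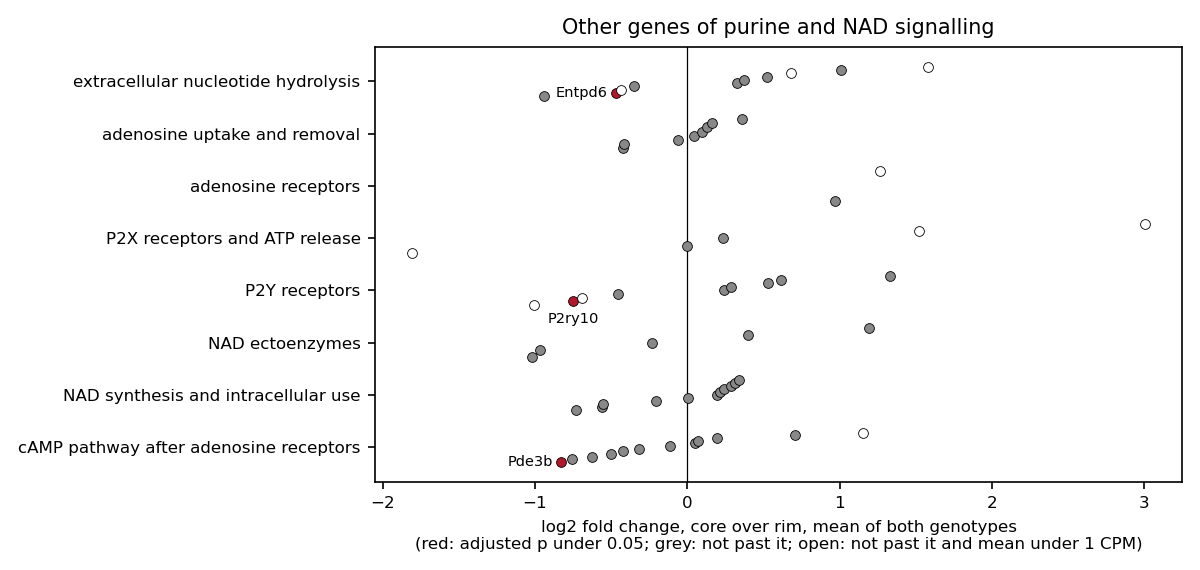
Log2 fold change core over rim, averaged over both genotypes, of the 62 tested genes on 8 lists of purine and NAD signalling, with 1 point per gene. The 3 called genes, Entpd6, P2ry10 and Pde3b, all lie below 0, and the 4 points farthest from 0 are genes that average under 1 CPM.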

How the data were processed

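The authors deposited raw read counts per gene symbol, 1 table for 17 libraries, without normalization. Per the labels' protocols, RNA was prepared with the Qiagen RNeasy Micro Kit and libraries with the Illumina TruSeq RNA kit. Per the submitters' processing notes, the builds were GRCm38 and mm10 and the tools featureCounts, Subread 2.0.0, HISAT2, Bowtie2 2.4.5 and cutadapt 3.2. The sources used here do not give their order and settings, strandedness, the purity of the sort or the handling of reads that map to several genes.

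Groups follow the labels. Counts were filtered with filterByExpr, scaled by TMM and fitted in 1 model of 4 groups with edgeR 4.0.16 in R 4.3.3 (robust quasi-likelihood F test, two-sided, Benjamini-Hochberg over 20137 genes, called at an adjusted p under 0.05). The script was tested on simulated data. SEs are the log2 fold change divided by the square root of F. CPM are TMM-scaled; relations used log2 CPM with a prior count of 2, libraries permuted within groups 100000 times (20000 without 2 libraries). Lengths are exon unions of GENCODE M21. Alternatives were DESeq2 1.42.0, its size factors, no filter, marker covariates, libraries left out, and replicate blocks in edgeR and limma 3.58.1. Same identifiers in KO core and KO rim had correlations of deviations of 0.072, 0.045 and 0.082, each under 0.1, and the reported fit has no block. Named were the 5 members, called pathway genes (at most 3 a list) and otherwise a list's most abundant gene. The 3 nearest genes of each member were also named, leaving out clone and predicted-gene symbols. Ada, Adora1, Adora3, Art2a, P2ry10b and the nearest-gene levels given for Cenpm and Asns were chosen after their values were seen. One gene of the macrophage list is not reported here and was left out of its sums and covariate. The members and lists were chosen with earlier results of these data known. Promoter sequences are from RefSeq; 4 members matched.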

Additional observations from a re-analysis of the deposited data

How the results depend on the processing

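Of 560 recomputed log2 fold changes of the 5 genes, 523 kept direction and side of the threshold, 9 passed it, 3 lost it and 25 changed sign, each of them uncalled. DESeq2 called more genes: 9 (KO over WT, core), 268 (KO over WT, rim; 1 member), 35 (core over rim, KO), 1907 (WT; 2 members), 2436 (mean of genotypes; 2 members) and 161 (difference of genotype effects; 1 member). The macrophage covariate left 47 genes by site in WT and 142 over both genotypes, with 0 members in each. The B cell covariate gave 10 genes in KO over WT in the rim, 720 by site over both genotypes and 9 in the difference of effects. Without a filter these were 2 in the rim and 4 in the difference. Without F322 and O, 457 genes were called by site in WT and 526 over both genotypes.

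Leaving out 1 library, genes called ranged from 0 to 26 (KO over WT, rim; members 0 to 1), 68 to 795 (core over rim, WT; members 0 to 2), 189 to 1560 (mean of genotypes; members 1 to 2) and 0 to 14 (difference; members 0 to 1). In the same fits KO over WT in the core, Entpd1 ranged from -0.20 to 0.075, Nt5e from -0.26 to 0.062 and Adora2a from -0.070 to 0.059. Core over rim, Entpd1 in KO ranged from -0.048 to 0.16 and, over both genotypes, Nt5e from -0.077 to 0.074 and Adora2a from -0.045 to 0.35. Without F322 and O, Entpd1 by site in KO was -0.031 and Adora2a over both genotypes -0.0046; Nt5e over both genotypes was 0.026 with the macrophage covariate. The causes were not tested.

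For KO core and KO rim libraries with a shared identifier, all 3 correlations of deviations were under 0.1. Pairs with different identifiers ranged from -0.201 to 0.242. Such values cannot tell whether libraries with a shared identifier came from the same animal. With a replicate block in edgeR, Nt5e over both genotypes was 0.0068 and Cd38 0.96 (adjusted p = 0.0123). The voom replicate block called 9 genes in KO over WT in the rim and 2 in core over rim in KO, and of the members it called Cd38 in the same 2 comparisons as edgeR. WT rim has 2 libraries, so a library left out there leaves 1, assumed to vary like the other groups. The fewest reads behind a member value were 276.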
